A study of Homo sapiens with 12 samples.

Results

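The comparison set 4 libraries labelled treated SH2 (sets 1 to 4) against 2 libraries labelled treated control (sets 2 and 4), together 6 of the 12 libraries of the series, chosen by their titles. The source of every library was 697 (EU3), an established human line of B-cell precursor leukaemia, and in it the fraction sorted for high aldehyde dehydrogenase activity (ALDH+). SH2 is a short hairpin RNA (shRNA) against IGF2BP1 that doxycycline switches on together with a green fluorescent reporter, and per the protocol treated SH2 cells were sorted again for the reporter. The labels give the 2 control libraries as a control for doxycycline, and say neither that they carried the scrambled shRNA of the protocol nor that they were sorted for the reporter. Untreated libraries of the same sets (4 labelled SH2, 2 labelled control) entered the same fit and are quoted where named. Each set was its own sort for ALDH+ cells with its own doxycycline treatment, and the labels do not give the number of transduced cultures behind the sets. Libraries are called SH2-labelled and control-labelled throughout, because the targeted gene went against the label, as described next. Unless untreated libraries are named, the treated ones are meant.

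IGF2BP1 binds many messenger RNAs and alters their stability and translation, and is made mainly before birth and in tumours. 697 cells stand at a precursor stage of the B lineage. In that lineage a cell first builds an immunoglobulin heavy chain, pairs it with the surrogate light chain (VPREB1, IGLL1), and then rearranges a kappa or a lambda light chain gene, a choice that its daughter cells inherit. Later stages gain receptors such as CR2, FCER2 and CD40 and present antigen on MHC class II molecules.

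IGF2BP1 was higher, not lower, in the SH2-labelled libraries, and HOXB4 was close to absent there. IGF2BP1 (ENSG00000159217, chr17:48997412-49055650) had 6.28, 14.8, 25.0 and 16.2 CPM (counts divided by the TMM-adjusted library size) in the SH2-labelled libraries of sets 1 to 4, against 0.961 and 0.382 CPM in the control-labelled libraries of sets 2 and 4. The groups did not overlap, and the control values rested on 3 and 1 counts. The log2 fold change was 4.42 ± 0.80 (SE; edgeR quasi-likelihood test, adjusted p = 0.00278). A difference of the same sign stood in the untreated libraries, with 21.7, 30.5, 39.2 and 32.9 CPM labelled SH2 against 1.42 and 0 CPM labelled control (5.52 ± 0.84, adjusted p = 0.000915). The labels describe the doxycycline-induced shRNA as lowering IGF2BP1 mRNA, so between these groups the target ran against its label, and every direction below is that of the labels only. Within the SH2-labelled cells it was lower with doxycycline than without in each of the 4 sets.

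HOXB4 (ENSG00000182742, chr17:48575513-48580111), a homeobox transcription factor of blood stem cells named in the series title, had 0, 0, 0 and 0.337 CPM in the SH2-labelled libraries, against 20.2 and 29.8 CPM in the control-labelled libraries. That is 1 count against 141, a ratio of 271-fold lower with an exact 95% counting interval of 47.8 to 10780 (adjusted p = 2.45e-05, edgeR). The untreated libraries split the same way, at 0.593 to 1.23 CPM labelled SH2 against 35.6 and 11.6 CPM labelled control. MYB, a transcription factor of blood progenitors, differed by -0.28 ± 0.50 on the log2 scale (adjusted p = 0.778). ALDH1A1, an aldehyde dehydrogenase, differed by -0.43 ± 0.96 (adjusted p = 0.827), with 14.7, 9.87, 1.65 and 1.35 CPM against 8.01 and 10.3 CPM. The paralogue IGF2BP3 had 0.59 ± 0.33 (adjusted p = 0.294), and IGF2BP2 had 2 counts in all, in the control-labelled library of set 2.

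**Figure D1:**
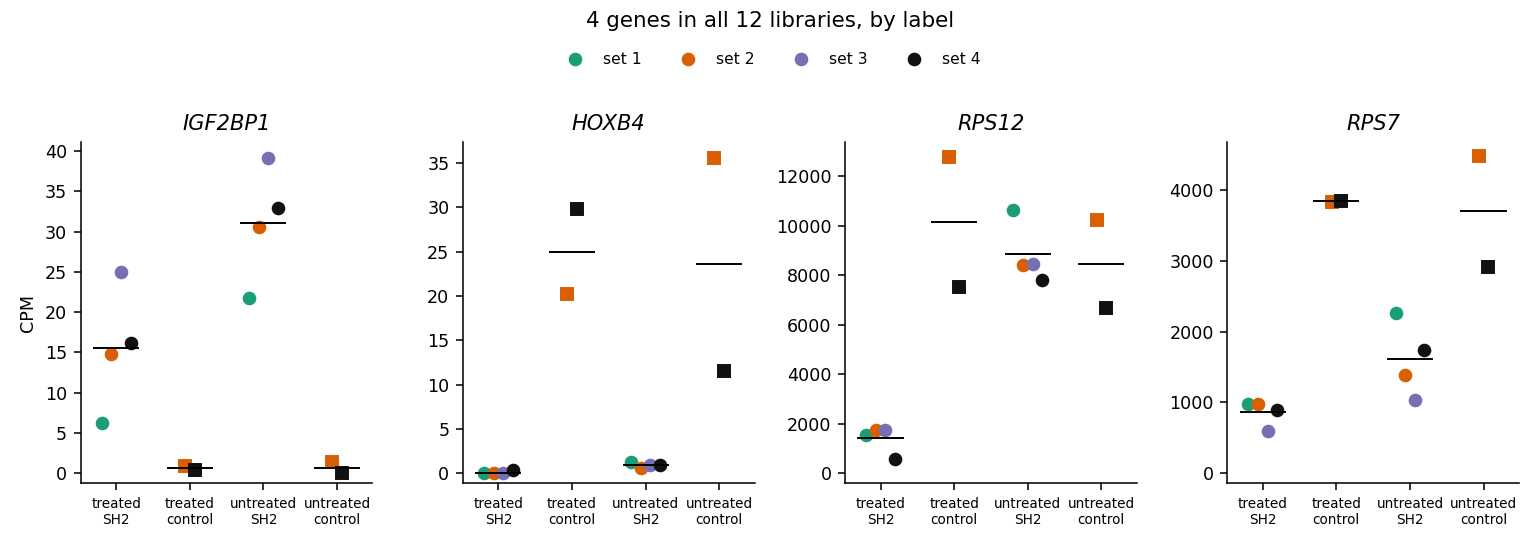
CPM of IGF2BP1, HOXB4, RPS12 and RPS7 in all 12 libraries by label, with 1 point per library coloured by set and a line at each group's mean. IGF2BP1 and HOXB4 separate SH2-labelled from control-labelled libraries with and without doxycycline, whereas RPS12 is low only in the 4 treated SH2-labelled libraries (597 to 1756 CPM).

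The 6 libraries held 2528057 to 3232769 reads in genes and 15847 to 17306 genes with a count. The kit reads only the 3′ end of a transcript, and 42.2% to 59.7% of reads per library were not unique and went uncounted. The SH2-labelled library of set 4 stood apart: over genes, its log2 CPM correlated with the other SH2-labelled libraries at 0.842 to 0.908, against 0.902 to 0.958 among those.

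Of 11968 genes tested 1326 passed an adjusted p of 0.05 (11.1%), 550 of them higher in the SH2-labelled libraries (4.6%) and 776 lower (6.48%). In 31.9% of the genes the 4 SH2-labelled values did not overlap the 2 control-labelled ones (15.4% higher, 16.6% lower). The median log2 fold change over all genes was 0.04. Many differences were near all-or-none: 85 of the higher genes (0.71% of those tested) had no control-labelled count, and 97 of the lower ones (0.81%) no SH2-labelled count. With the set as a block in the same fit 2171 genes passed (1035 higher, 1136 lower). Sets 1 and 3 held no control-labelled library, so the block pairs SH2-labelled with control-labelled libraries only in sets 2 and 4. Each control-labelled library carried much of the result, since 737 genes passed without that of set 2 and 645 without that of set 4; 402 genes (132 higher, 270 lower) kept their call and direction in all 6 fits that left out 1 library. The same comparison in untreated libraries called 938 genes (7.84%; 2.94% higher, 4.9% lower), of which 780 were also called with doxycycline in the same direction (58.8% of the treated and 83.2% of the untreated calls) and 0 in the opposite one. The test of the difference between the treated and the untreated comparison called 0 of 11968 genes by edgeR (116 at an unadjusted p under 0.05), 3 by the Wald test of DESeq2, 3 by edgeR without a filter on low counts and 1 with the set as a block. The 116 genes at an unadjusted p under 0.05 were fewer than a share of 0.05 of all genes, which chance alone would give. The 0 calls of this fit, which had no set term, do not show that no gene differed. What the shRNA did and what else differed between the SH2-labelled and control-labelled cells cannot be told apart in this comparison.

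**Figure D2:**
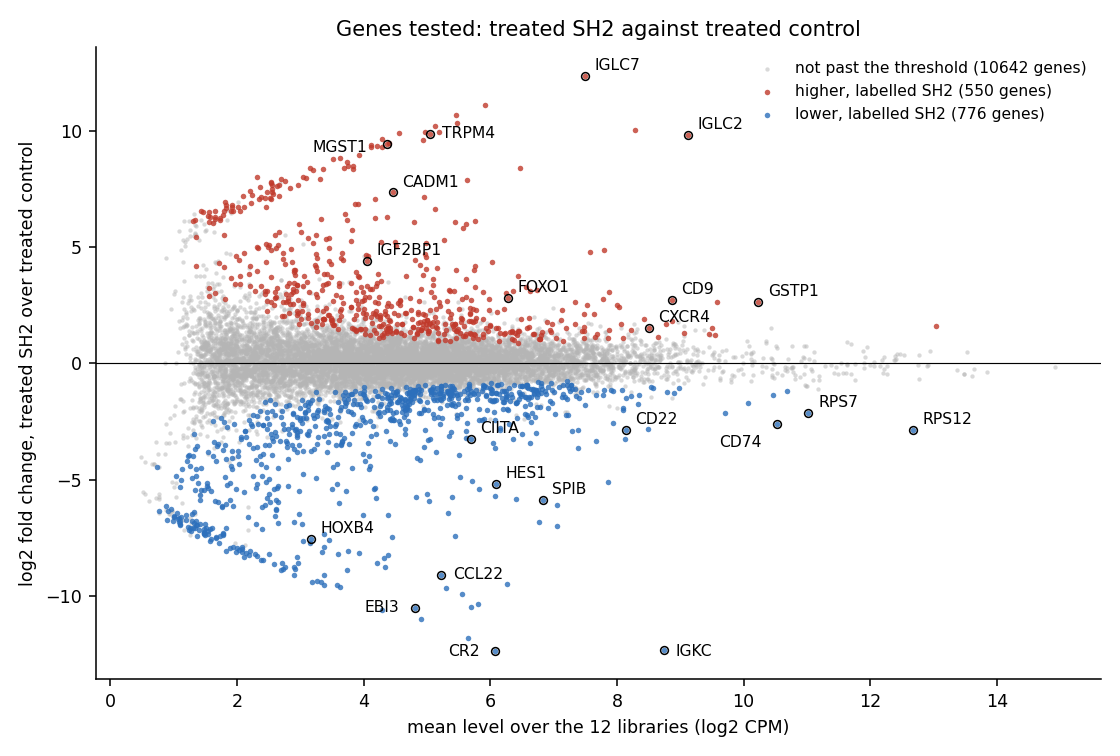
Log2 fold change of treated SH2-labelled over treated control-labelled libraries (vertical axis) against the mean level over the 12 libraries in log2 CPM (horizontal axis), with 1 point per tested gene. The 550 higher genes are red, the 776 lower genes blue and the rest grey, and genes described in the text are ringed.

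The cells differed in the light chain of their immunoglobulin: SH2-labelled libraries held lambda reads and control-labelled libraries kappa reads. IGKC, the kappa constant gene (ENSG00000211592, chr2:88857161-88857683), had 0.419, 0.380, 0 and 0 CPM in the SH2-labelled libraries, against 847 and 1505 CPM in the control-labelled ones, or 2 counts against 6583 (6324-fold lower, exact 95% counting interval 1750 to 52230; adjusted p = 9.59e-07). IGLC2, a lambda constant gene, had 811.5, 1445, 709.6 and 347 CPM, against 0.641 and 1.15 CPM (9.81 ± 1.62, adjusted p = 0.00165). IGLC3 had 440.7, 609.8, 441.5 and 119 CPM, against 0.641 and 0 CPM, and IGLC7 288.6, 258, 157 and 216.9 CPM, against 0 and 0 CPM. The groups did not overlap for any of the 4 tested light chain constant genes. Of all reads in these genes, kappa made up 0.0258%, 0.0159%, 0% and 0% in the SH2-labelled libraries (the zeros allow up to 0.0887% and 0.18%, exact 95% limits), against 99.8% and 99.9% in the control-labelled ones. An exact two-sided permutation test of this share gave p = 0.0667, the smallest that 4 against 2 libraries allow. The untreated libraries had the same split, at 0% to 0.141% against 99.7% and 99.9%. The lambda constant genes are near-identical copies, and IGLC6, at 84.2, 79.7, 60.3 and 6.40 CPM labelled SH2 against 0 and 0 CPM labelled control, may hold reads of its neighbours, so the reads of single members are uncertain. In bulk RNA, fewer cells with a transcript and less of it per cell cannot be told apart.

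The heavy chain and the precursor programme did not follow that split. IGHM, the mu heavy chain, had 1490, 2434, 1626 and 1137 CPM in the SH2-labelled libraries, against 1754 and 1943 CPM in the control-labelled ones (-0.15 ± 0.42, adjusted p = 0.871). No test was passed by TCF3, a transcription factor of early B cells (0.19 ± 0.30). Nor was one passed by WNT16 (-1.38 ± 1.14), MERTK (0.52 ± 0.77), NID2 (0.23 ± 0.98), ROR1 (-0.32 ± 0.50) or BLK (-0.21 ± 0.85). The latter were listed with TCF3 as t(1;19) fusion partners or reported targets. Over TCF3 and these genes the adjusted p of edgeR ran from 0.497 to 0.913. Of the 7 surrogate light chain and recombination genes 1 was higher and 0 lower, beside 4.6% higher and 6.48% lower over all genes. The higher one was IGLL5, which shares a constant exon with the lambda locus. It had 11.7, 17.1, 6.26 and 4.38 CPM against 0.320 and 0 CPM (1 count). VPREB1, a component of the surrogate light chain, had 402, 163, 60.6 and 41.4 CPM labelled SH2, against 34.0 and 82.5 CPM labelled control. IGLL1, its partner, had 488.5, 217.6, 40.5 and 34.0 CPM, against 69.9 and 90.5 CPM. DNTT, which adds bases at immunoglobulin joints, had 1136, 505, 196 and 145 CPM, against 279 and 277 CPM, and RAG1, a subunit of the recombinase, 28.5, 18.98, 8.24 and 3.03 CPM, against 7.05 and 8.79 CPM. For all 4 genes the SH2-labelled libraries of sets 1 and 2 lay above both control-labelled ones. Those of sets 3 and 4 lay below both for DNTT and IGLL1, between them for VPREB1, and between and below for RAG1. Set 1 was the highest SH2-labelled library for 6 of 7 genes in the surrogate light chain list, where it was so for 28.5% of all genes tested. VPREB3, a B-cell gene of this family, had -0.85 ± 0.51 (adjusted p = 0.336) and passed once sets were blocked (-1.15, adjusted p = 0.049) and without the SH2-labelled library of set 1 (-1.45, adjusted p = 0.0372).

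**Figure D3:**
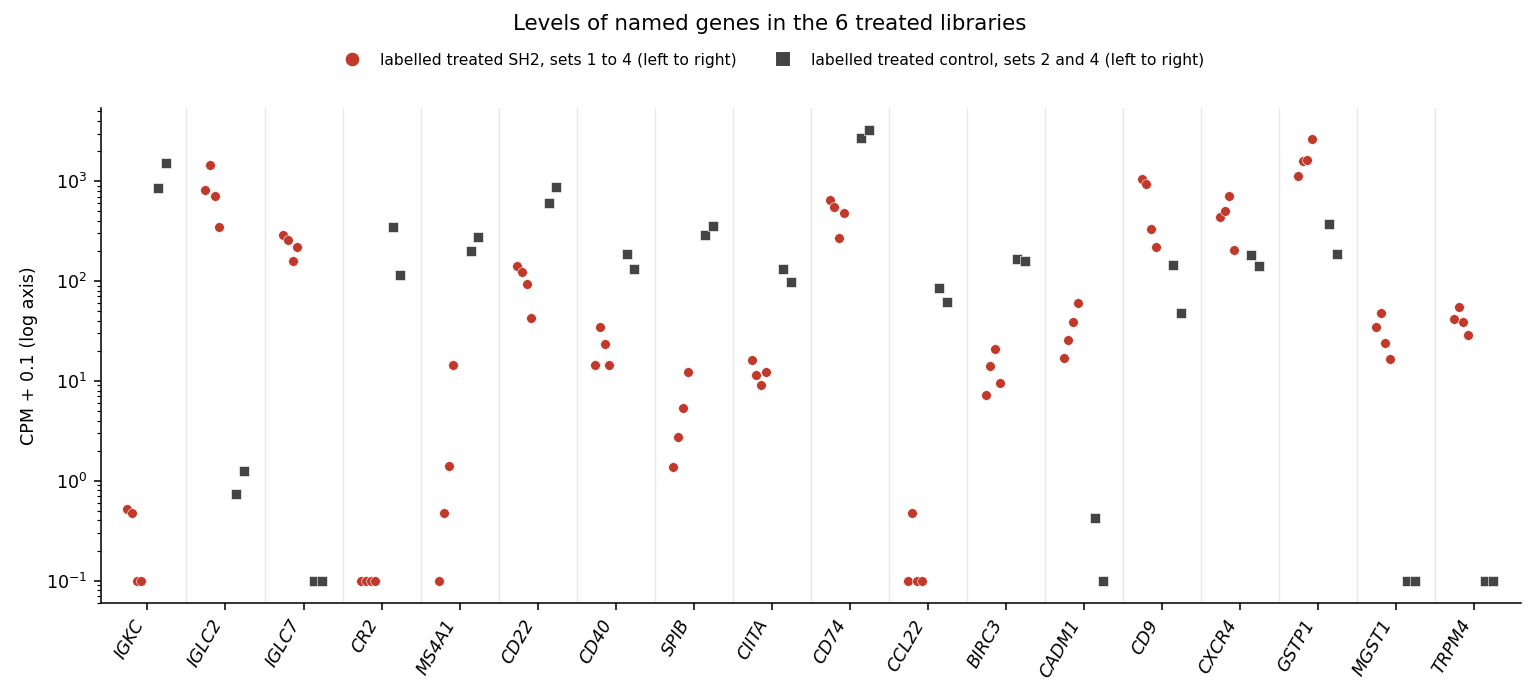
CPM plus 0.1 on a log axis for 18 genes in the 6 treated libraries, with 1 point per library (circles labelled SH2, sets 1 to 4; squares labelled control, sets 2 and 4). For each gene shown the groups do not overlap; points at the lowest line have no count.

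Receptors of mature B cells were lower in the SH2-labelled libraries. Of 39 tested B-cell surface and signalling genes 16 were lower and 1 higher, with a median of -0.98 (over all genes 6.48% were lower, 4.6% higher, and the median was 0.04). CR2, the complement receptor that lowers the threshold for antigen, had 0 counts in all 4 SH2-labelled libraries, against 348 and 114 CPM in the control-labelled ones, at least 887-fold lower when 3 counts over the 4 libraries are taken as the floor (adjusted p = 3.34e-05). FCER2, a low-affinity receptor for IgE, had 0 CPM in all 4, against 16.3 and 12.2 CPM, or at least 53.2-fold lower (adjusted p = 0.000164). CR2 and FCER2, both markers of mature B cells, were among the 97 lower genes without any SH2-labelled count, as were ACTL8 and NLRP4. MS4A1, which encodes CD20, had 0, 0.380, 1.32 and 14.5 CPM, against 199 and 278 CPM (-5.81 ± 0.90, adjusted p = 0.00105). CD22, an inhibitory co-receptor of the B-cell receptor, had 140, 123, 92.9 and 42.1 CPM, against 599 and 865 CPM (-2.88 ± 0.46, adjusted p = 0.00122). CD40, the receptor through which T cells help B cells, had 14.2, 34.9, 23.4 and 14.5 CPM, against 185 and 131 CPM (-2.86 ± 0.34, adjusted p = 0.000143). In MS4A1, CD22 and CD40 every SH2-labelled library lay under both control-labelled ones. The tetraspanins CD37 and CD82, the TNF receptor CD27, the inhibitory lectin CD72 and PLCG2, the phospholipase under the B-cell receptor, were lower by -1.96 to -3.25 on the log2 scale. Of the 16, 9 kept the call in every fit that left out 1 library (CR2, FCER2, MS4A1, CD22, CD40, CD37, CD82, CD27 and PLCG2), and CD72 lost it without the control-labelled library of set 4 (adjusted p = 0.0692). CD9, a tetraspanin of precursor B cells, was the higher member, at 1050, 927, 330.4 and 219 CPM, against 145 and 47.8 CPM (2.71 ± 0.66, adjusted p = 0.0168), and it did not pass without the control-labelled library of set 4 (2.12, adjusted p = 0.177).

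Among 29 B-lineage transcription factors 6 were lower and 1 higher (median 0.11), beside 6.48% lower and 4.6% higher over all genes. SPIB, an ETS factor of mature B cells, had 1.26, 2.66, 5.27 and 12.1 CPM in the SH2-labelled libraries, against 291 and 357 CPM in the control-labelled ones (-5.88 ± 0.57, adjusted p = 2.45e-05). IRF8, a partner of ETS factors, had 5.45, 6.84, 1.98 and 4.04 CPM, against 44.2 and 49.7 CPM (-3.36 ± 0.40, adjusted p = 0.000139). Both were lower by far more than their spread, and both kept the call without any single library. BCL6, POU2AF1, BCL11A and ETV6 were lower by -1.26 to -1.32, and without the control-labelled library of set 4 none of these 4 passed (adjusted p of 0.0849 to 0.421). Of the 6 fits that left out 1 library, BCL6 passed in 5, BCL11A in 3, POU2AF1 in 2 and ETV6 in 1, and the lower genes of the list numbered 2 to 7. FOXO1, a factor of early B-cell genes, was higher, at 70.8, 104, 208 and 109 CPM, against 15.7 and 19.5 CPM (2.80 ± 0.53, adjusted p = 0.00385; 0.0531 without the control-labelled library of set 2).

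MHC class II genes were lower, both inside and outside the MHC region. CIITA, the coactivator that switches class II genes on (chr16:10866222-10943021), had 15.9, 11.4, 8.90 and 12.1 CPM in the SH2-labelled libraries, against 131 and 98.2 CPM in the control-labelled ones (-3.25 ± 0.33, adjusted p = 3.34e-05). CD74, the invariant chain that fills the class II groove (chr5:150401637-150412929), had 646, 548, 269 and 483 CPM, against 2692 and 3232 CPM (-2.61 ± 0.39, adjusted p = 0.000726). The class II chains themselves are listed under several gene IDs each, for alternative copies of the MHC region, so their counts were also summed per gene. Summed HLA-DQA1 had 4.19, 4.56, 2.31 and 0 CPM, against 388 and 284 CPM. Summed HLA-DPB1 had 2.51, 5.32, 3.95 and 0 CPM, against 385.5 and 355 CPM, and summed HLA-DQB1 had 30.6, 22.4, 13.5 and 8.76 CPM, against 119.5 and 109 CPM. HLA-DRB5, a chain that only some MHC haplotypes carry, had 0 counts in the 4 SH2-labelled libraries, against 105 and 73.4 CPM, or at least 334-fold lower (adjusted p = 2.29e-05). Summed HLA-DRA had 9.64, 13.3, 0.988 and 0 CPM, against 31.1 and 18.3 CPM. Summed HLA-DRB1 differed less, with 33.1, 30.8, 7.25 and 6.74 CPM, against 49.7 and 40.5 CPM. Its untreated groups overlapped, with 57.0, 85.1, 11.7 and 24.7 CPM labelled SH2 against 46.5 and 47.0 CPM labelled control. No treated SH2-labelled library reached a treated control-labelled one in any of these genes. Of the 10 tested gene IDs in the list 8 were lower and 0 higher (median -3.61), all 10 had groups that did not overlap (16.6% of all genes were lower without overlap), and 7 kept the call without any single library. Summed per gene, 6 were lower. Over all genes 6.48% were called lower and 4.6% higher. Counting limits this region: HLA-DPA1, HLA-DMA, HLA-DMB and HLA-DOB were listed at 0 in all 12 libraries, and 120 tested gene IDs, 14 of them called, are not in the primary assembly of the annotation.

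The promoters of the class II genes are shown because these genes were lower together and are known to share a control module, of which the Y box is a CCAAT element. Given here are the 150 bases before the start of each gene in RefSeq (GRCh38.p14), 5′ to 3′ on the gene's strand, with ATTGG or its reverse complement CCAAT in capitals.
CD74 (chr5:150412911-150413060, minus strand): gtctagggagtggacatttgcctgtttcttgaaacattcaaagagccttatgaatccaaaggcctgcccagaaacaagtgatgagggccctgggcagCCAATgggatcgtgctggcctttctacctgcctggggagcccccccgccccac
HLA-DQA1 (chr6:32637256-32637405, plus strand): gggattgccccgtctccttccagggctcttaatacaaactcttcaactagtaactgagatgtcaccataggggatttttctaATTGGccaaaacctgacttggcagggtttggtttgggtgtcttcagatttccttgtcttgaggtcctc
HLA-DQB1 (chr6:32666658-32666807, minus strand): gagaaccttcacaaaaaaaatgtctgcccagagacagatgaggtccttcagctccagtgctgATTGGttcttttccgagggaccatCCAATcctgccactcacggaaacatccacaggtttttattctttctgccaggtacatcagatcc
HLA-DPB1 (chr6:33075840-33075989, plus strand): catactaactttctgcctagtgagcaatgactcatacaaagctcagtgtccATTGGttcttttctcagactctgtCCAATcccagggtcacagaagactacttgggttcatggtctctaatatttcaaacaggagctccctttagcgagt
HLA-DRB5 (chr6:32530288-32530437, minus strand): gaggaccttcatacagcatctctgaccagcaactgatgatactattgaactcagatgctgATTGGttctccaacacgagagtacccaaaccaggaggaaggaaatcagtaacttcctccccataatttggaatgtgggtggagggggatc
The element stood in each promoter shown. Its first base lay 53 bases before the start in CD74, 68 in HLA-DQA1 and 90 in HLA-DRB5. HLA-DQB1 held it at 88 and 64 bases before the start, and HLA-DPB1 at 99 and 75. The promoter of HLA-DRB1, searched but not shown, held it 46 bases before the start. CIITA and HLA-DRA had no promoter entry to search. Of all 35116 RefSeq promoters given, 23.5% hold it in the same window, so a match is a description and not a site.

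Targets of NF-κB, the factor that CD40 and related receptors activate, included 7 lower and 0 higher of 21 tested (median -0.83), and all 7 kept the call without any single library. CCL22, a chemokine that draws T cells, had 0, 0.380, 0 and 0 CPM in the SH2-labelled libraries, against 85.6 and 61.5 CPM in the control-labelled ones, or 1 count against 428 (822-fold lower, exact 95% counting interval 147 to 32550; adjusted p = 9.59e-07). EBI3, a subunit of interleukin-27, had 0 CPM in all 4, against 106 and 25.2 CPM, or at least 254-fold lower, and CD80, a costimulator of T cells, had 0 CPM in all 4, against 36.9 and 32.9 CPM, or at least 129-fold lower. These 3 genes carried a single SH2-labelled count between them. BIRC3, an inhibitor of cell death induced by the pathway, had 7.12, 14.1, 20.8 and 9.43 CPM, against 165 and 160 CPM (-3.65 ± 0.55, adjusted p = 0.000829). NFKBIE, an inhibitor in the pathway's own feedback, had 6.70, 5.70, 8.24 and 11.1 CPM, against 55.8 and 103.9 CPM (-3.31 ± 0.36, adjusted p = 7.08e-05). BCL2A1, an antiapoptotic BCL2 relative, had 1 count, against 226 (434-fold lower, exact 95% counting interval 77.2 to 17230), and CD40 is given above. In the untreated libraries 10 of the 21 were lower and 0 higher. Over all genes 6.48% were lower and 4.6% higher in the treated libraries, and 4.9% and 2.94% in the untreated ones.

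The promoters of CCL22 and BIRC3 are shown for the κB motif, the sequence that NF-κB binds, searched on both strands in the 200 bases before the start (RefSeq, GRCh38.p14), with matches in capitals.
CCL22 (chr16:57358583-57358782, plus strand): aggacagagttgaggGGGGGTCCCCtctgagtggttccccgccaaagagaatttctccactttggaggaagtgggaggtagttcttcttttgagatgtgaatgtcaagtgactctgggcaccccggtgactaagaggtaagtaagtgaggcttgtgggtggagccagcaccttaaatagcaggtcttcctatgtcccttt
BIRC3 (chr11:102317284-102317483, plus strand): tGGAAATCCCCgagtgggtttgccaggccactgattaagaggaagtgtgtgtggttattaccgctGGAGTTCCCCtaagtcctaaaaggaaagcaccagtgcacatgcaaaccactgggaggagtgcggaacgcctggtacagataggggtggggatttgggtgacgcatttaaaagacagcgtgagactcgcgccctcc
CCL22 held the motif 185 bases before the start and BIRC3 held it 199 and 135 bases before, while EBI3, CD80 and BCL2A1 had no match in this window. NFKBIE and CD40 had no promoter entry to search. The pattern searched was GGGRNWYYCC (R is A or G, N any base, W is A or T, Y is C or T). The motif was present in 4.21% of the 35116 promoters.

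Homing and adhesion receptors differed in both directions. Of 31 tested, 8 were lower and 3 higher (median -0.74), beside 6.48% lower and 4.6% higher over all genes. CXCR5, which guides B cells into follicles, had 0, 1.52, 4.61 and 1.35 CPM in the SH2-labelled libraries, against 116 and 79.5 CPM in the control-labelled ones (-5.62 ± 0.81, adjusted p = 0.000646). CCR7, which guides lymphocytes into lymph nodes, had 24.7, 13.3, 59.3 and 7.07 CPM, against 194 and 219 CPM (-2.98 ± 0.63, adjusted p = 0.00744). ITGAL, the alpha chain of the integrin LFA-1, had 2.93, 2.28, 2.96 and 4.38 CPM, against 41.3 and 54.6 CPM (-3.91 ± 0.38, adjusted p = 2.45e-05). For these 3 receptors the groups lay well apart. ICAM3, a ligand of LFA-1, ran the other way, with 64.5, 93.4, 112 and 122 CPM, against 0 and 0 CPM, or at least 191-fold higher (adjusted p = 2.45e-05). CADM1, a cell adhesion molecule, had 16.8, 25.4, 38.6 and 59.96 CPM, against 0.320 and 0 CPM, or 402 counts against 1 (209-fold higher, exact 95% counting interval 37.3 to 8285). CXCR4, the receptor that keeps precursor cells in the marrow, was also higher, at 439, 500.1, 709 and 205 CPM, against 184 and 143 CPM (1.504 ± 0.42, adjusted p = 0.032), but did not pass without either control-labelled library (adjusted p = 0.121 and 0.249) or without the SH2-labelled library of set 2 or 3 (0.0649 and 0.0706). Of the 31, 5 were lower without the control-labelled library of set 2, and 9 without that of set 4. Leaving out the SH2-labelled library of set 2 or of set 3 also gave 5.

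**Figure D4:**
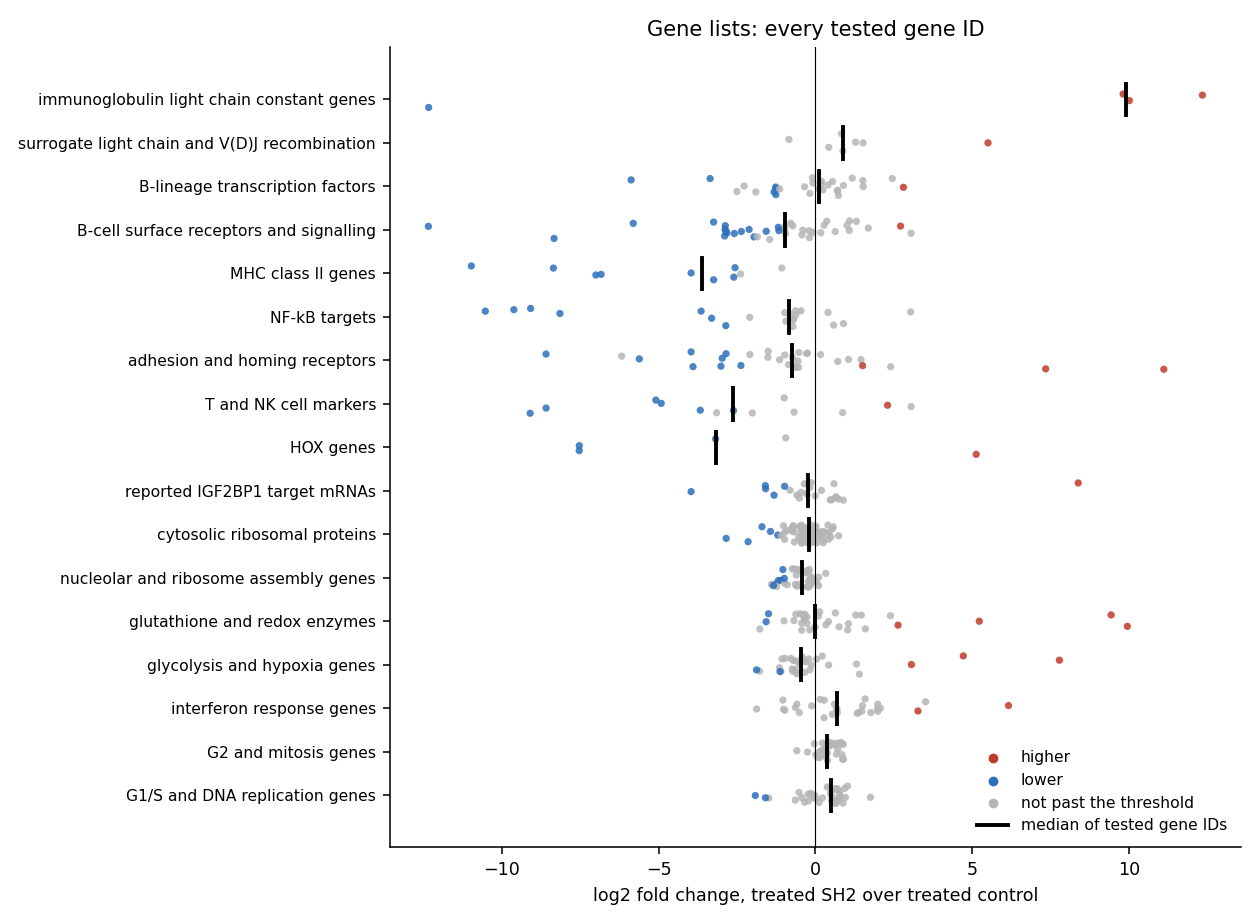
Log2 fold change of every tested gene ID in a choice of the gene lists, treated SH2-labelled over treated control-labelled libraries, in red where higher, blue where lower and grey where the test was not passed, with the median as a black bar. Lower calls make up 8 of 10 in MHC class II, 3 of 5 in HOX and 6 of 13 in T and NK markers, beside 6.48% over all genes. A gene that passed the filter on low counts only through control-labelled libraries could hardly be other than lower. The fractions of tested genes are therefore no measure of direction in a whole list. They make up 16 of 39 in the B-cell surface list and 7 of 21 in the NF-κB list. The medians are -0.20 for ribosomal proteins, -0.43 for ribosome assembly, 0.38 for G2 and mitosis and 0.50 for G1/S.

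Ribosomal protein genes differed in single members. RPS12, a protein of the small subunit (ENSG00000112306, chr6:132814441-132817564), had 1548, 1756, 1730 and 597 CPM in the SH2-labelled libraries, against 12771 and 7525 CPM in the control-labelled ones (-2.85 ± 0.39, adjusted p = 0.000348). In the untreated libraries the groups overlapped, with 7816 to 10647 CPM labelled SH2 against 10227 and 6677 CPM labelled control (0.06 ± 0.40, adjusted p = 0.96). The treated difference minus the untreated one was -2.91 ± 0.58, with an unadjusted p of 0.00019 that did not pass over all genes in the edgeR fit (adjusted p = 1); over the alternatives the adjusted p ran between 0.00182 and 1, and it passed once sets were blocked (0.0451), in the Wald test of DESeq2 (0.00354) and without a filter on low counts (0.00182). RP11-864N7.2, a processed pseudogene of RPS12, showed the same pattern on 2 to 5 counts per SH2-labelled library, against 38 and 45, and its reads may be strays of the parent gene. CCDC43, EXOSC5, a subunit of the RNA exosome, and KARS, the lysyl-tRNA synthetase, had the next smallest p for that difference (-1.59, -1.84 and -1.44 on the log2 scale, unadjusted p of 0.00228, 0.00101 and 0.0011), and all 3 were lower in the SH2-labelled libraries with doxycycline (adjusted p of 0.000673 to 0.00793); KARS did not pass without the control-labelled library of set 4 (adjusted p = 0.153). RPS7, another small subunit protein, had 982, 980.4, 600 and 897 CPM, against 3830 and 3843 CPM (-2.15 ± 0.33, adjusted p = 0.000884), and was lower without doxycycline too (-1.20 ± 0.36, adjusted p = 0.04). RPS26, RPL5 and RPL22L1 made up the other lower members, at -1.71, -1.21 and -1.44, and none of these 3 held without the control-labelled library of set 2 (adjusted p of 0.0795 to 0.123). RPL22L1 passed in 5 of the 6 fits that left out 1 library, RPS26 in 3 and RPL5 in 1. In all, 5 of 81 ribosomal protein genes were lower and 0 higher (median -0.20), a share near that of all genes (6.48% lower), with 10 lower once the set was a block and 2 without the control-labelled library of set 2.

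Of 38 nucleolar and ribosome assembly genes 6 were lower and 0 higher (median -0.43; 6.48% of all genes were lower), and none of the 6 kept the call in every fit that left out 1 library. Among them were IMP4, a part of the small subunit processome (-1.31 ± 0.29, adjusted p = 0.00876), RRP9, which binds a small nucleolar RNA (-1.35 ± 0.33, adjusted p = 0.0174), BOP1, a factor of the large subunit (-1.19 ± 0.30, adjusted p = 0.0199), and NOP16 (-1.04 ± 0.28, adjusted p = 0.0268). BOP1 had 82.9, 62.3, 53.7 and 76.5 CPM in the SH2-labelled libraries, against 101 and 212 CPM in the control-labelled ones, so the 2 control-labelled libraries differed more from each other than set 2 did from the SH2-labelled group. Of the 38, 0 passed without the control-labelled library of set 4, 5 without that of set 2, and 3 without the SH2-labelled library of set 2 or of set 3.

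Beside the lambda genes and ICAM3 described above, genes with no control-labelled count included COL18A1, TRPM4 and CRISP3. COL18A1, a basement membrane collagen, had 52.4, 45.2, 50.7 and 57.6 CPM in the SH2-labelled libraries, against 0 and 0 CPM in the control-labelled ones, or at least 98.7-fold higher (adjusted p = 2.06e-06). TRPM4, a cation channel, had 41.5, 55.1, 38.6 and 28.6 CPM, against 0 and 0 CPM, or at least 77.4-fold higher. CRISP3, a secreted protein, had 38.5, 45.2, 35.6 and 48.8 CPM, against 0 and 0 CPM, or at least 80.5-fold higher. These 3 varied little among the SH2-labelled libraries. FRMD3 had 117, 91.1, 75.8 and 5.39 CPM, against 0 and 0 CPM, and its low value was that of set 4. TNFRSF18, a costimulatory TNF receptor, had 34.8, 37.2, 79.4 and 20.6 CPM, against 0 and 0 CPM (at least 83.8-fold higher), and THSD7A had 21.8, 35.7, 58.3 and 24.3 CPM, against 0 and 0 CPM (at least 68.5-fold higher). At the lower end ACTL8, an actin-like gene, had 0 CPM in the 4 SH2-labelled libraries, against 110 and 208 CPM (at least 568-fold lower), NLRP4 had 0 CPM in the 4, against 59.0 and 78.3 CPM (at least 249-fold lower), and NAPSB, a transcribed pseudogene, had 1 count, against 609 (1170-fold lower, exact 95% counting interval 209 to 46290). All 9 genes kept their call without any single library.

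Among 33 glutathione and redox enzymes 4 were higher and 2 lower (median -0.02), beside 4.6% higher and 6.48% lower over all genes. MGST1 and MGST2, microsomal glutathione transferases, had 16.5 to 47.8 and 23.6 to 60.8 CPM in the SH2-labelled libraries, against 0 CPM in both control-labelled ones (at least 57.1-fold and at least 83.6-fold higher). GSTP1, a cytosolic glutathione transferase, had 1117, 1584, 1640 and 2663 CPM, against 376.5 and 188 CPM (2.63 ± 0.47, adjusted p = 0.00267; 0.0516 without the control-labelled library of set 4). HMOX1, which breaks down haem, had 6.28, 14.8, 45.5 and 41.8 CPM, against 1.28 and 0 CPM (5.23 ± 1.38, adjusted p = 0.0265), and lost the call without either control-labelled library (0.0866 and 0.195) or without the SH2-labelled library of set 3 (0.0524). With the set as a block 7 of the 33 were higher. Of 33 glycolysis and hypoxia genes 3 were higher and 2 lower (median -0.46), beside 4.6% higher and 6.48% lower over all genes, so the lower share was near that of all genes. EGLN3, an oxygen-sensing hydroxylase, had 3.77, 6.84, 14.8 and 13.1 CPM, against 0 and 0 CPM (at least 19.3-fold higher, adjusted p = 0.0026). SLC16A3, a lactate transporter, had 31.4, 41.4, 46.5 and 80.2 CPM, against 3.53 and 0 CPM (4.72 ± 0.95, adjusted p = 0.00551; 0.0504 without the control-labelled library of set 4). Without that library 1 of the 33, EGLN3, was higher and 0 lower, and with the set as a block 4 were higher and 5 lower. FOSL2, an AP-1 factor, was higher at 54.5, 57.3, 52.7 and 35.7 CPM, against 7.37 and 10.7 CPM (2.47 ± 0.33, adjusted p = 0.000324). Of 28 unfolded protein response genes 1 was higher in the fit without a block and 13 with it, the largest such move among the lists.

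HOX genes other than HOXB4 were also at low level. The list of 41 held the HOX genes with 2 cofactors, and 5 passed the filter on low counts, so the count says little of the family. HOXB7 had 0 counts in the 4 SH2-labelled libraries, against 10.6 and 5.73 CPM in the control-labelled ones (at least 30.7-fold lower, adjusted p = 0.00438). HOXC4 was lower (-3.19 ± 0.82, adjusted p = 0.022) and HOXA4 higher, at 0.838, 8.73, 11.5 and 8.76 CPM, against 0.320 and 0 CPM (1 count; 44.8-fold, exact 95% counting interval 7.82 to 1788), and both lost the call without either control-labelled library. HES1, a Notch target that restrains differentiation, had 2.51, 2.66, 8.24 and 10.1 CPM, against 220.5 ± 17.7 CPM (mean ± SD, n = 2; -5.19 ± 0.70, adjusted p = 0.000389), the only other member of the 18 tested blood stem cell regulators, beside HOXB4 and ETV6, that passed. Of 25 mRNAs reported in other cells to be bound by IGF2BP1, 5 were lower and 1 higher (median -0.25), beside 6.48% lower and 4.6% higher over all genes. H19, a long noncoding RNA, was the higher, at 115, 102.5, 73.1 and 0 CPM, against 0.320 and 0 CPM (adjusted p = 0.0325), with no count in set 4 of the SH2-labelled libraries; the call was lost without either control-labelled library (adjusted p = 0.171 and 0.206) or without the SH2-labelled library of set 2 or 3 (0.0571 and 0.0537). CD44, CDK6, CYLD and ETV6 were lower by -1.32 to -3.97, and each lost the call without at least 1 control-labelled library, so that 1 of the 25 was lower without that of set 2 and 2 without that of set 4.

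Some gene groups followed a set or a library. Markers of T and NK cells were high in the control-labelled library of set 2: the 19 genes summed to 239, 223, 184 and 202 CPM in the SH2-labelled libraries, against 2169 CPM in the control-labelled library of set 2 and 257 CPM in that of set 4. Without doxycycline the control-labelled library of set 2 was high as well, at 1961 CPM, and that of set 4 had 377 CPM. CD3E, a chain of the T-cell receptor complex, had 0.419, 0, 0 and 0 CPM, against 102.5 and 1.91 CPM, and TRBC2, a constant gene of the T-cell receptor, had 12.2, 27.0, 36.6 and 3.37 CPM, against 1284 and 70.7 CPM. CD8B and GZMB had no count in any of the 6 libraries. Over all genes 6.48% were lower in the SH2-labelled libraries and 4.6% higher. Of 13 tested markers 6 were lower in the SH2-labelled libraries and 1 higher (median -2.62), and without the control-labelled library of set 2 only CD247 was lower. The same library held most of the reads of 3 other strongly lower genes that T cells also express: MAL (384.6 against 3.06 CPM in that of set 4), ITM2A (252.5 against 9.93 CPM) and FYB (62.5 against 3.06 CPM), of which MAL and FYB did not pass without it (adjusted p = 0.186 and 0.133). ZAP70, a kinase of T cells that some B-cell leukaemias express, was higher at 44.8, 55.8, 53.7 and 32.7 CPM, against 13.8 and 4.97 CPM (2.30 ± 0.42, adjusted p = 0.00316). Whether other cells contributed to these differences was not tested.

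Interferon response genes were high in the SH2-labelled library of set 4. The 38 genes summed to 634, 806, 713 and 2407 CPM in the SH2-labelled libraries of sets 1 to 4, against 745 and 850 CPM in the control-labelled ones, and set 4 was the highest SH2-labelled library for 24 of 29 tested members (33% of all genes). MX1, an antiviral GTPase, had 7.54, 6.84, 9.88 and 161 CPM, against 6.73 and 1.15 CPM (adjusted p = 0.135), and ISG15, a ubiquitin-like protein, had 31.4, 57.3, 55.7 and 630.3 CPM, against 38.5 and 59.2 CPM (adjusted p = 0.232). MX2 (44.0, 88.1, 116 and 83.9 CPM, against 13.5 and 3.44 CPM; adjusted p = 0.00292) and IFITM1 (2.93, 4.56, 1.32 and 3.71 CPM, against 0 and 0 CPM; adjusted p = 0.0355, and passed in 2 of the 6 fits that left out 1 library) were the 2 higher members, 0 were lower, and without the SH2-labelled library of set 4 there were 1 higher and 3 lower. Over all genes 4.6% were higher and 6.48% lower. In the SH2-labelled library of set 4 the 34 genes of G2 and mitosis summed to 1594 CPM. That was below the other SH2-labelled libraries (5584, 5198 and 5042 CPM) and below both control-labelled ones (4100 and 2748 CPM). The untreated libraries of set 4 were low too, with 1277 CPM labelled SH2 (3678 to 4708 CPM in sets 1 to 3) and 1795 CPM labelled control (3580 CPM in set 2). The interferon genes were not set apart in the untreated SH2-labelled library of set 4, at 791.5 CPM beside 609.8 to 744.9 CPM in the other sets. None of the 34 passed by edgeR (0 at an unadjusted p under 0.05) or by DESeq2 (median 0.38; 31 of 34 positive), and 1 was lower with the set as a block and 1 higher without the SH2-labelled library of set 4.

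**Figure D5:**
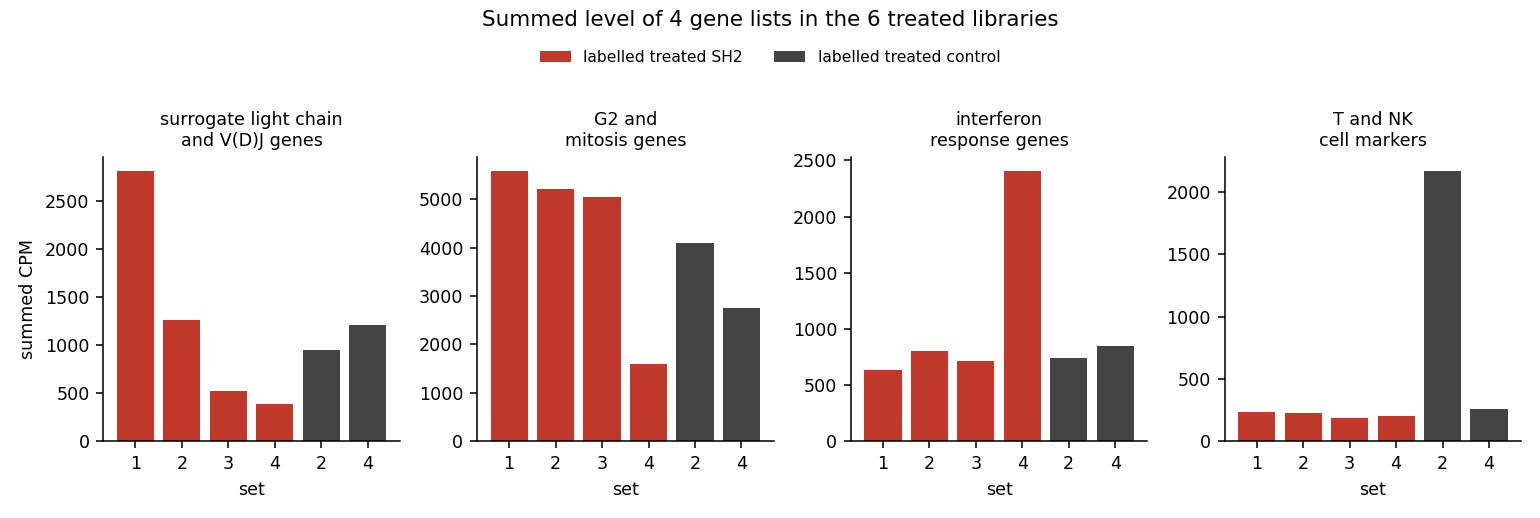
Summed CPM of 4 gene lists (vertical axes) in each of the 6 treated libraries, red labelled SH2 and grey labelled control, with the set number under each bar. The precursor genes are highest in set 1 labelled SH2 (2812 CPM) and lowest in set 4 (388 CPM), mitosis genes are low (1594 CPM) and interferon genes high (2407 CPM) in set 4 labelled SH2, and T-cell markers are high in set 2 labelled control (2169 CPM).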

How the data were processed

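Counts per gene were deposited by the authors as HTSeq tables for 12 libraries (64253 gene IDs); per the submitters' processing notes FastQC, STAR, HTSeq, DESeq2 and hg38 were used, with versions and annotation not given in the sources used here. A second table, of normalized signal for 26231 genes, was deposited too, and its values, divided by a constant per library, were all whole (100%, tolerance 0.01) and equal to the counts. It supplied the gene names; positions are from GENCODE on GRCh38. CPM values are counts relative to TMM-adjusted library sizes.

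Counts were fitted in R 4.3.3 with edgeR 4.0.16: filterByExpr by group (minimum count 10), TMM, 1 term per group over all 12 libraries, robust quasi-likelihood tests, Benjamini-Hochberg adjustment over 11968 genes, threshold 0.05. The biological coefficient of variation was 0.376. The SE after a log2 fold change was derived from the test, as the absolute log2 fold change divided by the square root of the quasi-likelihood F. Intervals and floors (3 counts over a group) cover counting error only. Set numbers were taken to pair the libraries because per the design text a set is its own sort and treatment. Same-set deviations from the group means correlated at 0.168 and 0.178 between SH2-labelled and control-labelled libraries and at 0.188 to 0.663 between treated and untreated SH2-labelled ones, but the unmatched SH2-labelled set 1 and control-labelled set 2 reached 0.155, and treated SH2-labelled set 2 was closer to untreated set 1 (0.272) than to its own set (0.188). No pair of replicates agreed within sampling noise (chi-square per degree of freedom 8.39 or more). The fit was also run on counts simulated from its own estimates of spread, with no set effect and no outlying library. That run does not show how the fit performs on these libraries.

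The comparison and its 32 gene lists (814 genes) were chosen with earlier results of these data known. Genes named are the title genes and the IGF2BP family, the 12 largest differences per direction among non-overlapping calls whose mean log2 CPM reached 3, the 4 smallest p-values of each list, the members of 2 short lists (t(1;19) fusion partners and reported targets, and light chain constant genes) and the 5 smallest p-values of the interaction. CD74, CD22, MS4A1, CD9, CD27, CD37, CD72, PLCG2, HLA-DPB1, HLA-DQB1, BIRC3, CXCR4, CCR7, POU2AF1, BCL11A, RPL5, HMOX1, H19, TRBC2, DNTT, RAG1, MX1 and ISG15 are named beyond it, after their values had been seen. Some genes that the rule names are not reported here.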

Additional observations from a re-analysis of the deposited data

Results flagged for a closer look

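In 7 of 120 groups of 4 SH2-labelled values examined, 1 library lay farther from the rest than the 95% limit of the Dixon test (chance gives about 1 in 20), and each time it was that of set 4. Its summed interferon response genes stood at 2407 CPM, against 634 to 806 CPM in sets 1 to 3, with MX1 at 161 CPM (6.84 to 9.88 in the others) and ISG15 at 630.3 CPM (31.4 to 57.3). Its G2 and mitosis genes summed to 1594 CPM (5042 to 5584 in the others), and those of the untreated libraries of set 4 were low as well, at 1277 CPM labelled SH2 and 1795 CPM labelled control. MS4A1 had 14.5 CPM there (0 to 1.32), CD72 28.3 CPM (10.54 to 13.4) and PLCG2 30.0 CPM (40.2 to 42.2). The causes were not tested.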

How the results depend on the processing

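Of the 1326 calls, 1322 were kept with DESeq2 size factors, which moved the median log2 fold change by 0.003, and 1302 in the Wald test of DESeq2 1.42.0 (1749 calls; 845 higher). None was called in the opposite direction under an alternative that kept gene IDs apart. Counts moved by over 1.5 times in these settings. Without a filter on low counts 833 genes were higher and the interaction called 3. The Wald test of DESeq2 also called 3 interactions. The 6 treated libraries alone gave 789 calls (333 higher, 456 lower). The replicate block gave 2171 (1035 higher) and 1 interaction, and apart from VPREB3 and the RPS12 interaction it changed no call of a gene described with its values. The matched sets 2 and 4 gave 873 (456 lower). Leaving out 1 library gave 645 to 1462 calls (186 to 642 higher, 459 to 834 lower) and 0 interactions. Chosen after seeing the data, leaving out both the SH2-labelled library of set 4 and the control-labelled library of set 2 gave 932 calls (354 higher), summing gene IDs by symbol 1322 calls, and the whole reads recovered from the deposited table the same 1326. Limma-trend 3.58.1 on that table (pseudocount 1) gave 1365.

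Genes that passed no test changed sign as follows: TCF3 to 0 (matched sets; -0.01 to 0.41 with 1 library left out), NID2 to -0.46 (matched sets), -0.08 (limma-trend) and -0.04 (both left out; -0.70 to 1.2 with 1 library left out), MYB to 0.13 and ISG15 to -0.30 (both left out), BLK to 0.02 and MERTK to -0.09 (replicate block). With 1 library left out BLK ran between -0.79 and 0.57, ROR1 between -0.68 and 0.14, ISG15 between -0.01 and 2.35 and IGHM between -0.38 and 0. The causes were not tested. Genes with few counts per library are limited by counting.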
